A study of Mus musculus with 12 samples.

Results

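The mouse TRAV13 family consists of closely related V segments of the T cell receptor alpha chain (TRA). Its members here were TRAV13-1, TRAV13-2, TRAV13-3 and TRAV13-5, and they were taken from the productive TRA contigs whose deposited V call was TRAV13-n, TRAV13D-n or TRAV13N-n, with the copy letter D or N dropped and with names that contain DV left out. This gave 438 of 6482 productive TRA contigs (6.76%), in 432 cells. The calls TRAV13D-4 and TRAV13N-4 also meet this rule, although the segment is not among the 4 named members. Their 35 contigs were counted with the family and are given apart as TRAV13-4. The unlettered copy, TRAV13-4-DV7, which can join the alpha or the delta chain, was left out with its 35 contigs. No productive contig was called TRAV13-5, so that 0 of 6482 contigs allows a share of up to 0.0463%. This limit holds only if the deposited calls could carry that name, which was not checked, and it treats contigs of 1 clone as independent.

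The receptors came from sorted CD45+ immune cells of C57BL/6 mice, either 5xFADTg mice, whose transgenes encode mutant human forms of amyloid precursor protein and presenilin and lead to amyloid plaques, or NonTg mice without these transgenes. Of 6 receptor libraries, 4 were from brain parenchyma (2 NonTg and 2 5xFADTg) and 2 were from the meninges, which wrap the brain (1 per genotype). Animals, ages and sexes are not named in the labels, so p-values measure the spread between these libraries, which may be technical. The sort took all leukocytes, and the presence of a productive receptor is the only sign here that a cell was a T cell. The listed contigs of a library held 15827899 to 26710709 reads and 49997 to 128700 unique molecular identifiers (UMIs, tags that mark single cDNA molecules), and 21 cell barcodes occurred in more than 1 library. A clonotype was the pair of CDR3 nucleotide sequences of the beta chain (TRB) and the alpha chain that had most UMIs, counted once per library, in cells with exactly 1 productive TRB.

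An alpha chain is made in the thymus by joining 1 TRAV segment to 1 TRAJ segment, and bases are trimmed and added at the join. The join encodes the CDR3, the loop that lies over the bound peptide, while the V segment alone encodes the other loops, CDR1 and CDR2, which mostly contact the presenting MHC molecule. The alpha locus can rearrange again on the same chromosome, with V segments farther away from the J segments and J segments farther downstream. A T cell can also carry another alpha chain, productive or failed, from its other chromosome. In the C57BL/6 genome a stretch of the TRAV locus was duplicated, so that many segments exist as an unlettered copy and as D and N copies.

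The germline V exons are shown because these differences separate the members and copies in the part of the segment that encodes the receptor. The bases that each deposited call used were not examined. All lie on the plus strand of chromosome 14 of mm10 (GENCODE M21), and capitals mark bases that differ from TRAV13-1.
TRAV13-1, chr14:53545247-53545525: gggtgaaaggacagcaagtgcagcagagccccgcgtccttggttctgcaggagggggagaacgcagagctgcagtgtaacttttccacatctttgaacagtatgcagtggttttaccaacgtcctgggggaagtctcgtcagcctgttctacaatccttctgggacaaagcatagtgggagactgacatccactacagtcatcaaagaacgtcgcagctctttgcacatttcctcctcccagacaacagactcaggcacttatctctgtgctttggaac
TRAV13-2, chr14:53635121-53635399: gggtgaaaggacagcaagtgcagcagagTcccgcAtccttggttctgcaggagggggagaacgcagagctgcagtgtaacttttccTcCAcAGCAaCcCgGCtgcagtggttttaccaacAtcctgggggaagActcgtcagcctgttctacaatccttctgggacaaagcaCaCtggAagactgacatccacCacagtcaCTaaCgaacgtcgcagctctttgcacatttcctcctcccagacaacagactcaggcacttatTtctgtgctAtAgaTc
TRAV13D-1, chr14:52851588-52851866: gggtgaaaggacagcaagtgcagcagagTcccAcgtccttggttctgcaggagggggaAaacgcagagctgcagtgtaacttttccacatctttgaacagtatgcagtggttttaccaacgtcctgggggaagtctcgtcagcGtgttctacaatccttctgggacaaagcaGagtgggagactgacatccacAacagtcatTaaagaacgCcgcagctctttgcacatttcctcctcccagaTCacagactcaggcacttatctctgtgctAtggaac
TRAV13N-3, chr14:53337355-53337639: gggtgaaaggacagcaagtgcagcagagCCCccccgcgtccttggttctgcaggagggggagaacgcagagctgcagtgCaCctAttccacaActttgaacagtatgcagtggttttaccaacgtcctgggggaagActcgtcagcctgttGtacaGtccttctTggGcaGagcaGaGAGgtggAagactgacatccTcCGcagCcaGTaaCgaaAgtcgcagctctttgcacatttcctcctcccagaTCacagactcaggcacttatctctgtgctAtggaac
TRAV13N-4, chr14:53363828-53364106: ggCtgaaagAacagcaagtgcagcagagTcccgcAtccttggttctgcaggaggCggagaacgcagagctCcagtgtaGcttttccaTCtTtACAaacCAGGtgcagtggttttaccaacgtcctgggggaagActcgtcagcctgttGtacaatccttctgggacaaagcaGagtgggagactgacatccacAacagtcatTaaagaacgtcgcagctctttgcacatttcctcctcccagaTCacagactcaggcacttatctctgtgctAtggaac
TRAV13-2 differed from TRAV13-1 at 26 bases (90.68% identity), TRAV13D-1 at 11 and TRAV13N-4 at 25. TRAV13N-3 had 285 bases, with 23 mismatches and 6 bases more than TRAV13-1. The densest run of capitals in TRAV13-2 lies before the middle of the exon, whereas those of TRAV13D-1 are spread as single bases and short pairs. Some copies could hardly be told apart. TRAV13D-2 and TRAV13N-2 had identical V exons (0 mismatches), and all their contigs carried the first name. TRAV13D-1 and TRAV13N-1 differed by 1 base, as did TRAV13D-3 and TRAV13N-3. The unlettered TRAV13-3 is annotated as a pseudogene, and its exon of 284 bases is 1 base shorter than that of TRAV13N-3. Against TRAV13D-3 it had 0 mismatches and a gap of 1 base. TRAV13-5, listed in the annotation under the clone name B230359F08Rik, was the most distant member, with 83.7% identity to TRAV13-1 over an exon of 276 bases.

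The members also differ in the V bases that open the CDR3, counted from the conserved cysteine codon. These starts are shown because they are the part of the CDR3 that the segment itself sets, with capitals for differences from TRAV13-1.
TRAV13-1: tgtgctttggaac
TRAV13D-1, TRAV13N-1, TRAV13D-3, TRAV13N-3, TRAV13D-4 and TRAV13N-4: tgtgctAtggaac
TRAV13-2, TRAV13D-2 and TRAV13N-2: tgtgctAtAgaTc
Of the 13 germline bases, TRAV13 clonotypes kept a median of 10 before the first mismatch, with a range of 2 to 13. The first 9 bases were intact in 172 of 217 clonotypes, so the third codon mostly kept the germline letter that separates unlettered TRAV13-1 from its D and N copies.

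Of 5207 cells with 1 productive TRB and at least 1 TRA, 325 (6.24%) had a TRAV13 segment in the TRA with most UMIs, and they made up 217 of 3108 clonotypes (6.98%, 95% exact binomial interval 6.11 to 7.94%, which like all intervals here covers counting error only). The remaining TRAV13 contigs were 59 additional chains in such cells, 18 in cells without TRB and 36 in cells with more than 1 TRB. TRAV13 ranked 6 of 18 TRAV families by clonotypes. TRAV13-1 was the main member, with 115 clonotypes (3.70%, interval 3.06 to 4.42%) in 207 cells, and ranked 7 of 55 TRAV segments. TRAV13-2 followed with 73 clonotypes (2.35%) in 83 cells and rank 18. TRAV13-4 had 21 clonotypes (0.676%) in 27 cells. TRAV13-3 had 8 clonotypes (0.257%), each of 1 cell and each called TRAV13N-3. TRAV13-1 and TRAV13-2 thus held most of the family, and no paired clonotype was called as the pseudogene copy of TRAV13-3.

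The family took similar shares of the 6 repertoires. It made up 43 of 606 clonotypes (7.10%) in NonTg parenchyma 1, 36 of 449 (8.02%) in NonTg parenchyma 2, 46 of 657 (7.0%) in 5xFADTg parenchyma 1 and 53 of 784 (6.76%) in 5xFADTg parenchyma 2. In the meninges it made up 16 of 286 clonotypes (5.59%) in the NonTg and 23 of 326 (7.06%) in the 5xFADTg library. The lowest share was in NonTg meninges and the highest in NonTg parenchyma 2, and the ranges of the 2 tissues overlapped. In parenchyma the mean share was 7.56% ± 0.652 in NonTg and 6.88% ± 0.171 in 5xFADTg (SD, n = 2 libraries each). Both NonTg values lay above both 5xFADTg values, which gives p = 0.333 in a two-sided exact permutation test, the smallest p that 2 against 2 libraries allow.

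Counted by cells rather than clonotypes, 1 library stood apart. TRAV13 cells were 97 of 1063 paired cells (9.13%) in NonTg parenchyma 1, against 5.74% in NonTg parenchyma 2, 5.06% and 5.71% in the 5xFADTg parenchyma libraries, and 4.58% and 6.49% in NonTg and 5xFADTg meninges. In NonTg parenchyma 1, 29 of the 97 cells belonged to 1 clonotype. The difference between libraries was therefore larger by cells than by clonotypes.

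TRAV13-1 did not differ between genotypes or tissues beyond the spread of the libraries. It was the alpha V segment of 26 clonotypes (4.29%) in NonTg parenchyma 1, 14 (3.12%) in NonTg parenchyma 2, 22 (3.35%) in 5xFADTg parenchyma 1, 32 (4.08%) in 5xFADTg parenchyma 2, 6 (2.10%) in NonTg meninges and 15 (4.60%) in 5xFADTg meninges. The 2 meninges libraries were the lowest and the highest of the 6, and the genotypes overlapped in parenchyma. The NonTg parenchyma mean was 3.70% ± 0.83 and the 5xFADTg one 3.72% ± 0.518 (SD over 2 libraries each), and the log2 fold change of 5xFADTg against NonTg was -0.01 (SE 0.27, adjusted p = 0.999, edgeR quasi-likelihood test with Benjamini-Hochberg adjustment over 122 segments). The 95% interval of this difference, -0.55 to 0.52 on the log2 scale, is the precision these libraries give. For meninges against parenchyma it was -0.13 (SE 0.32, adjusted p = 0.933).

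TRAV13-2 showed no difference between genotypes or tissues that passed the test. Its shares were 1.98% (12 clonotypes) in NonTg parenchyma 1, 2.67% (12) in NonTg parenchyma 2, 3.20% (21) in 5xFADTg parenchyma 1, 1.66% (13) in 5xFADTg parenchyma 2, 3.15% (9) in NonTg meninges and 1.84% (6) in 5xFADTg meninges. The genotypes overlapped in parenchyma, as did the tissues, and the 2 5xFADTg parenchyma libraries were the highest and the lowest of the 6. The log2 fold change was 0.05 for genotype (SE 0.40, adjusted p = 0.999, edgeR) and 0.07 for tissue (SE 0.43, adjusted p = 0.962, edgeR). TRAV13-1 exceeded TRAV13-2 in 5 of 6 libraries, the exception being NonTg meninges.

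The smaller members were near the limit of what the libraries could show. TRAV13-4 was found in 3, 6, 3 and 8 clonotypes of NonTg parenchyma 1 and 2 and 5xFADTg parenchyma 1 and 2, in 0 of NonTg meninges and in 1 of 5xFADTg meninges. This name pools TRAV13D-4 and TRAV13N-4, whose V exons differ at 24 bases (91.4% identity). TRAV13N-4 had 14 clonotypes, with 0 in either meninges library, and TRAV13D-4 had 7, with 1 in 5xFADTg meninges. The pooled TRAV13-4 share averaged 0.827% ± 0.426 over the parenchyma (SD, n = 4) and 0.153% ± 0.217 over the meninges libraries (SD, n = 2). Neither meninges value reached the lowest parenchyma value. The difference did not pass the test (log2 fold change -2.14, SE 1.17, unadjusted p = 0.0848, adjusted p = 0.933, edgeR), and the count of 0 in NonTg meninges allows a share of up to 1.05%. Without NonTg meninges the log2 fold change was -1.25, and without 5xFADTg meninges the remaining meninges count is 0 and no fold is given. By genotype the log2 fold change was -0.16 (SE 0.74, adjusted p = 0.986, edgeR). TRAV13-3 had 2 clonotypes in NonTg parenchyma 1, 4 in NonTg parenchyma 2, 0 in both 5xFADTg parenchyma libraries and 1 in each meninges library, which is under the minimum of 10 clonotypes for a fit. The zeros allow shares of up to 0.457% and 0.383%. The share of 0.330% in NonTg parenchyma 1 lay below both limits. That of 0.891% in NonTg parenchyma 2 (interval 0.243 to 2.27%) lay above both. This difference between genotypes was not tested.

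No TRAV13 segment was among the calls of either fit, and neither fit called any segment: 0 of 122 by genotype (0.0%) and 0 of 125 by tissue (0.0%). At an unadjusted p under 0.05 there were 5 segments by genotype and 7 by tissue with edgeR, and 0 and 1 with DESeq2, which also called none. Other settings did call segments, 3 by genotype with cells in place of clonotypes and 2 by tissue with at least 2 UMIs per chain, none of them TRAV13.

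**Figure D1:**
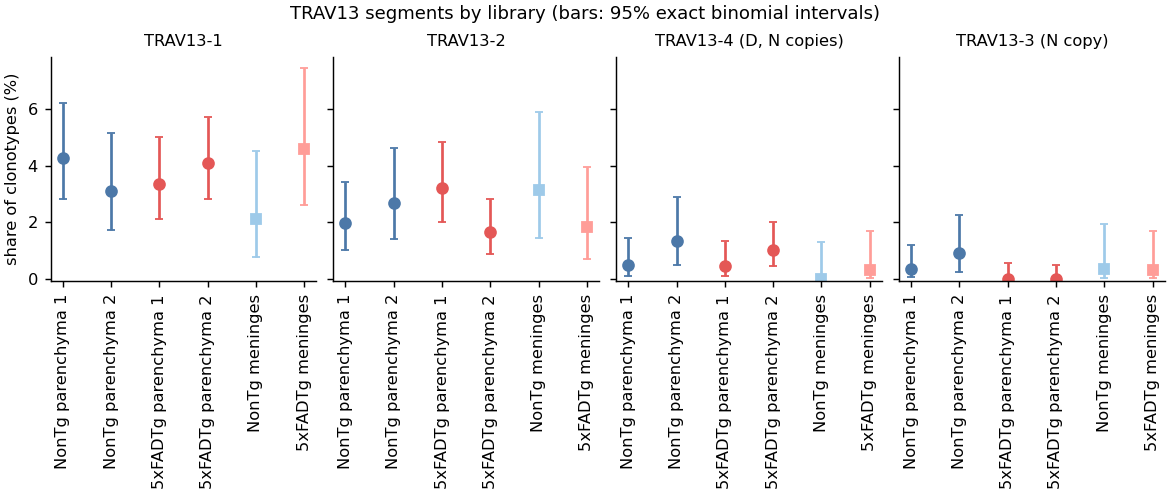
Share of clonotypes (percent) with TRAV13-1, TRAV13-2, TRAV13-3 and TRAV13-4 in each of the 6 libraries, with 95% exact binomial intervals. TRAV13-1 spans 2.10 to 4.60% with its extremes in the 2 meninges libraries, and TRAV13-3 is at 0 in both 5xFADTg parenchyma libraries.

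Expanded clonotypes, those of 2 or more cells, made up a similar share of TRAV13 and of other clonotypes, and the largest TRAV13 clones carried TRAV13-1 in parenchyma. Expanded were 30 of 217 TRAV13 clonotypes (13.8%, interval 9.53 to 19.1%) and 394 of 2891 others (13.6%). By library there were 8, 6, 7 and 8 expanded TRAV13 clonotypes in NonTg parenchyma 1 and 2 and 5xFADTg parenchyma 1 and 2, 0 of 16 in NonTg meninges and 1 of 23 in 5xFADTg meninges. The meninges held fewer expanded clonotypes among the others too (10.7% and 5.61%, against 13.8 to 16.8% in parenchyma), and fewer cells were sampled there.

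Among TRAV13-1 clonotypes 20 of 115 were expanded (17.4%, interval 11.0 to 25.6%), and they held 112 of 207 TRAV13-1 cells (54.1%). Among TRAV13-2 clonotypes 6 of 73 were expanded (8.22%), with 16 of 83 cells, and 4 of these 6 lay in 5xFADTg parenchyma 1. TRAV13-4 had 4 expanded of 21, with 2 in NonTg parenchyma 2 and 2 in 5xFADTg parenchyma 2, and TRAV13-3 had 0 of 8. TRAV13-1 therefore held most of the expanded family cells. Within libraries, expanded against 1-cell clonotypes gave log2 fold changes of 0.41 for TRAV13-1 (SE 0.39, adjusted p = 0.700), -0.78 for TRAV13-2 (SE 0.62, adjusted p = 0.700) and 0.42 for TRAV13-4 (SE 0.79, adjusted p = 0.912) in edgeR's quasi-likelihood test with library as block. None of the 3 passed, while 3 of 125 segments did (2.4%), all of them lower in expanded clonotypes (TRAV11, TRAJ18 and TRBV13-2). Single libraries moved these values: without NonTg parenchyma 1 that of TRAV13-1 was 0.16, and that of TRAV13-2 was -1.86 without 5xFADTg parenchyma 1 (unadjusted p = 0.0316, adjusted p = 0.401, edgeR) and -0.40 without 5xFADTg parenchyma 2. Counted from 3 cells, expansion gave 0.041 for TRAV13-1 and -1.38 for TRAV13-2. The difference between TRAV13-1 and TRAV13-2 in expansion was itself not tested.

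**Figure D2:**
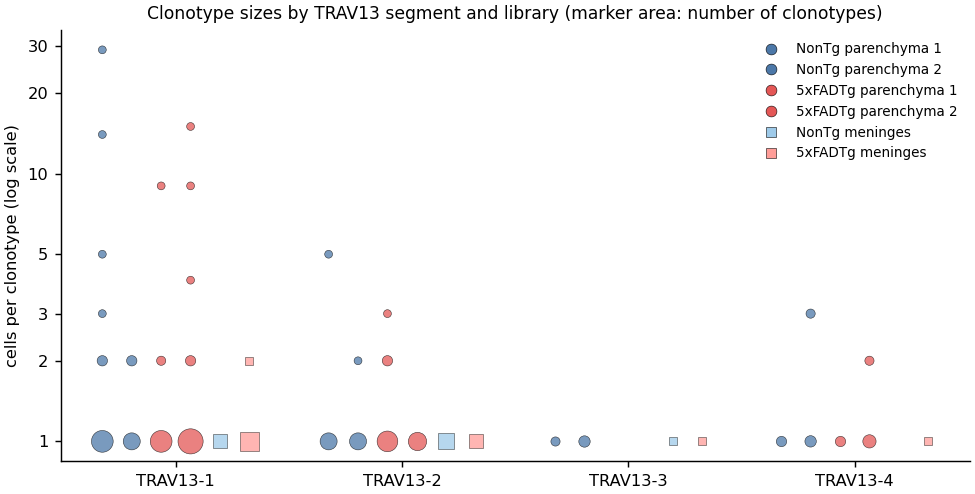
Cells per clonotype for the TRAV13 members in each library. Each point stands for all clonotypes of 1 size, and its area grows with their number. The 3 clonotypes of 10 or more cells (29, 15 and 14) all carry TRAV13-1 or its D copy and lie in parenchyma.

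The 3 largest TRAV13 clones are shown with their alpha and beta CDR3 sequences, since they decide the share of cells. In alpha chains capitals mark leading bases that match the called germline segment.
29-cell clone alpha, TRAV13D-1 and TRAJ22: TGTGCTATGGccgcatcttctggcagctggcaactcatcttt
29-cell clone beta, TRBV1 and TRBJ2-1: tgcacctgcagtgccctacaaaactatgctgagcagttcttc
15-cell clone alpha, TRAV13-1 and TRAJ48: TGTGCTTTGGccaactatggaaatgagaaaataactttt
15-cell clone beta, TRBV3 and TRBJ2-2: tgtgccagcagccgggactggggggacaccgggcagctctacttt
14-cell clone alpha, TRAV13-1 and TRAJ40: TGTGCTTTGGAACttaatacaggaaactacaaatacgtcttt
14-cell clone beta, TRBV13-1 and TRBJ1-2: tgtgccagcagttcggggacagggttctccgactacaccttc
The 29-cell and the 14-cell clone were in NonTg parenchyma 1, where they made up 2.73% and 1.32% of paired cells. The 15-cell clone made up 1.03% of paired cells in 5xFADTg parenchyma 2. The largest clones of TRAV13-2 were smaller, with 5 cells in NonTg parenchyma 1 (TRAJ39 and TRBV13-3) and 3 cells in 5xFADTg parenchyma 1 (TRAJ23 and TRBV12-2). Both of the largest TRAV13-4 clones had 3 cells in NonTg parenchyma 2 and were called TRAV13N-4, one with TRAJ31 and TRBV3 and the other with TRAJ17 and TRBV19. Large clones were thus found in both genotypes and mostly with TRAV13-1.

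The beta chain of the 15-cell clone belonged to a group of near-identical betas in 3 libraries, most of them paired with TRAV13-1 and several TRAJ segments, a set that was picked out after its sequences were seen and so gets no test. Over all 3108 clonotypes, 7 had a TRB whose last 10 CDR3 amino acids were those of the 15-cell clone, and 6 of these 7 carried TRAV13-1. All 6 used TRBV3 and TRBJ2-2. Their beta sequences are shown with capitals for bases that differ from the 15-cell clone.
5xFADTg parenchyma 2, 15 cells, TRAJ48: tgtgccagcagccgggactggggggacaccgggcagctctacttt
5xFADTg parenchyma 2, 9 cells, TRAJ48: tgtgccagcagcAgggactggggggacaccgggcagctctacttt
5xFADTg parenchyma 2, 1 cell, TRAJ44: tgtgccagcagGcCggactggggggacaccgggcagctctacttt
5xFADTg parenchyma 2, 1 cell, TRAJ57: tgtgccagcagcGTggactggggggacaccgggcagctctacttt
NonTg parenchyma 1, 1 cell, TRAJ48: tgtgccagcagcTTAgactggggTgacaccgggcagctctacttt
NonTg parenchyma 2, 1 cell, TRAJ57: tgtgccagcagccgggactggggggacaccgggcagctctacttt
The differences fall in the fourth and the fifth codon, apart from 1 base of the NonTg parenchyma 1 chain. The alpha CDR3 of the 3 TRAJ48 clonotypes was identical at every base in both genotypes. The betas of the 15-cell and the 9-cell clonotype, in the same library, differed by 1 base and by 0 amino acids. These 2 clonotypes therefore had the same CDR3 amino acids in both chains. The 2 TRAJ57 alphas are given here because they differ by 1 base and by 0 amino acids between libraries of different genotype.
5xFADTg parenchyma 2, TRAJ57 alpha: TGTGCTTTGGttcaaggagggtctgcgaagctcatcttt
NonTg parenchyma 2, TRAJ57 alpha: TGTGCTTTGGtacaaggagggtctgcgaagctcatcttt
The beta of the NonTg parenchyma 2 cell was the same at every base as that of the 15-cell clone of the other genotype. None of the 28 cells with these 6 receptors had a barcode that occurred in another library (0 of 28). The 9-cell beta had a median of 8 UMIs, the lowest being 1, and the 15-cell beta a median of 16, the lowest being 7. Among the 10 clonotypes with TRBV3, TRBJ2-2 and a beta CDR3 of 15 amino acids, the 6 with this ending all had TRAV13-1 and the other 4 did not. The seventh receptor with this ending, in 1 cell of NonTg parenchyma 1, combined TRBV10 and TRBJ2-2 with TRAV9-1 and TRAJ15.

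TRAJ use was broad. TRAV13 clonotypes used 40 TRAJ segments, with 36 for TRAV13-1, 27 for TRAV13-2, 17 for TRAV13-4 and 6 for TRAV13-3. The most frequent were TRAJ22 (17 clonotypes, 7.83% against 5.85% of others), TRAJ31 (15, 6.91% against 4.64%), TRAJ26 (14, 6.45% against 4.19%), TRAJ42 (11, 5.07% against 2.25%) and TRAJ15 (10, 4.61% against 2.84%). TRAJ22 also had most cells, 50, of which 29 belonged to the largest clone. None of these 5 passed the test against the other clonotypes of the same libraries, with log2 fold changes of 0.41, 0.57, 0.62, 1.16 and 0.67 and adjusted p = 0.165 for TRAJ42, the smallest of the 5 (edgeR, 43 TRAJ segments). Those of TRAJ22, TRAJ31, TRAJ26 and TRAJ15 turned negative under TMM scaling, which shifted the median of all TRAJ segments from -0.15 to -0.93, and that of TRAJ22 also under DESeq2.

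TRAJ18, the J segment of the semi-invariant receptor of iNKT cells, was the 1 of 43 TRAJ segments that differed (2.33% called). It was joined to TRAV13 in 2 clonotypes (0.922%), both in 5xFADTg parenchyma 1, and to other segments in 204 (7.06%), and its share was lower among TRAV13 clonotypes in 6 of 6 libraries. The log2 fold change was -2.86 (SE 0.78, adjusted p = 0.0134, edgeR, range over 14 alternatives 3.78e-07 to 0.794). Of the 204 other clonotypes, 165 were iNKT-like by receptor (TRAV11 with TRAJ18 and an alpha CDR3 of 15 amino acids). Without these, TRAJ18 made up 39 of 2726 other clonotypes (1.43%), the log2 fold change was -0.61, and the call was lost (adjusted p = 0.794, edgeR). It was also lost, with folds close to the reported one, with DESeq2 (-3.26, adjusted p = 0.0677) and when any library other than 5xFADTg parenchyma 1 was left out (-2.31 to -2.76).

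Other TRAJ segments did not pass in the reported fit. With the reported settings TRAJ7 was found in 0 of 217 TRAV13 clonotypes, which allows up to 1.38%, and in 65 others (2.25%, adjusted p = 0.0619, edgeR). TRAJ33 was found in 1 (0.461% against 3.11%, adjusted p = 0.102, edgeR), and 23 of the 90 others were MAIT-like, a receptor of TRAV1 with TRAJ33. TRAJ7 and TRAJ33 both passed as lower with TMM factors (adjusted p = 0.00239 and 0.00228, edgeR) and with cells in place of clonotypes (adjusted p = 0.0469 each, edgeR), and neither with DESeq2 (0.281 each). TRAJ45 (9 clonotypes, log2 fold change 1.49, SE 0.63) and TRAJ39 (10 clonotypes, 1.3) were higher in value, each with adjusted p = 0.165 (edgeR). TRAJ39 was split evenly between TRAV13-1 and TRAV13-2, with 5 clonotypes each.

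The copies of 1 member differed in the J segments they joined, a split that was looked at after values were seen and is given as a description. The D and N copies lie farther from the J segments than the unlettered ones. On the chromosome TRAV13D-1 starts the family 1303 kb before TRAJ61, TRAV13N-1 lies 992.1 kb before it, TRAV13-1 609.5 kb and TRAV13-2 519.6 kb. TRAJ61 at chr14:54155005-54155076 is the first J segment and TRAJ2 at chr14:54217836-54217901 is near the end of the J cluster. Among clonotypes with an unlettered TRAV13 segment, 72 of 104 (69.2%, interval 59.4 to 77.9%) used the first part of the J cluster, TRAJ61 to TRAJ31. Among those with a D or N copy, 35 of 113 did (31%, interval 22.6 to 40.4%).

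In NonTg parenchyma 1 and 2 the share of TRAJ61 to TRAJ31 was 70.0% and 71.4% with unlettered segments, against 21.7% and 31.8% with D and N copies. In 5xFADTg parenchyma 1 and 2 it was 59.1% and 67.9% against 45.8% and 32.0%. In NonTg and 5xFADTg meninges it was 62.5% and 91.7% against 37.5% and 9.09%, from 8 to 12 clonotypes in each class. The unlettered value was the higher one in all 6 libraries. Both main members showed this split: TRAV13-1 had 64% unlettered and 32.5% with D and N copies (13 of 40), and TRAV13-2 had 82.8% and 31.8% (14 of 44). The split was not particular to TRAV13, since the 12 other families with both kinds of copy had 742 of 1230 (60.3%, interval 57.5 to 63.1%) against 342 of 1159 (29.5%, interval 26.9 to 32.2%). TRAJ22, in the second part of the J cluster, was joined to TRAV13D-1 in 7 clonotypes, to TRAV13D-2 in 4 and to unlettered segments in 2. With members pooled over copies, the family had 49.4% against 46.3% of other clonotypes, a difference of 3.17 percentage points that did not pass (higher in 5 of 6 libraries, two-sided exact sign-flip permutation test p = 0.25, adjusted p = 0.312). It was 0.179 without iNKT-like receptors among the others, 5.66 without TRAV13-4, 5.38 without NonTg parenchyma 1 and 2.09 without 5xFADTg meninges.

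**Figure D3:**
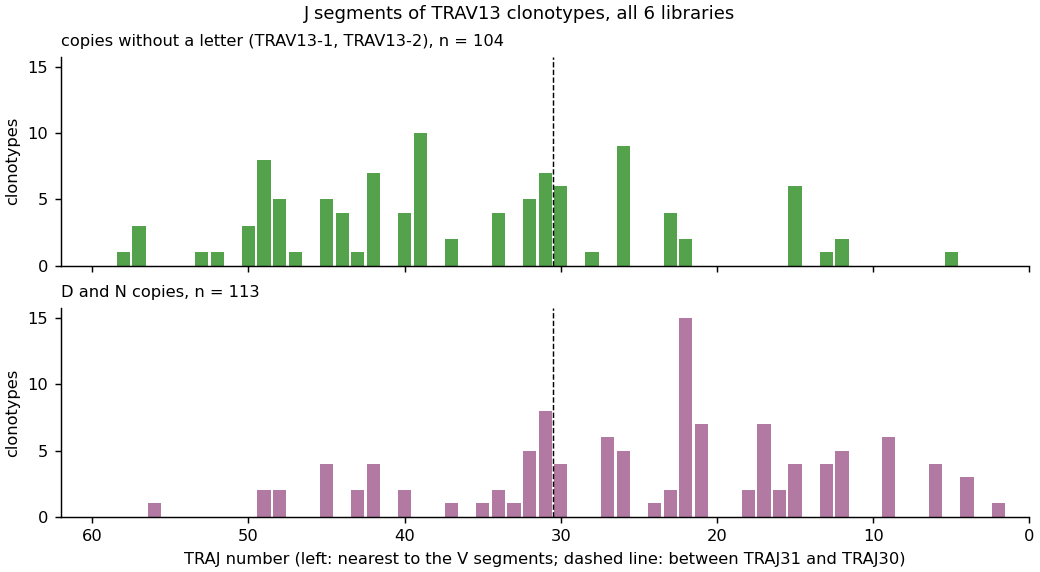
Clonotypes by TRAJ segment, ordered along the J cluster from TRAJ61 to TRAJ2, for unlettered TRAV13 segments and for D and N copies. Unlettered segments are mostly in the first part of the cluster (72 of 104) and D and N copies mostly in the second (35 of 113 in the first).

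TRAV13 alphas were paired with 22 TRBV segments, 19 of them with TRAV13-1 and 19 with TRAV13-2. The most frequent were TRBV10 with 20 clonotypes, the joint label TRBV12-2+TRBV13-2 with 20, TRBV16 with 18, TRBV3 with 17 and TRBV19 with 15. TRBV10 was the 1 of 21 TRBV segments that passed the test (4.76% called). It made up 9.22% of TRAV13 clonotypes and 112 others (3.87%), with a log2 fold change of 1.25 (SE 0.38, adjusted p = 0.0338, edgeR).

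By library the share of TRBV10 among TRAV13 clonotypes was 2.33% and 2.78% in NonTg parenchyma 1 and 2 (1 clonotype each), 15.2% and 9.43% in 5xFADTg parenchyma 1 and 2 (7 and 5), 12.5% in NonTg meninges (2) and 17.4% in 5xFADTg meninges (4). Among other clonotypes it was 6.04%, 2.66%, 3.60%, 3.15%, 3.33% and 4.29% in the same order. TRAV13 was higher in 5 of 6 libraries, by the most in the 5xFADTg and meninges libraries, and lower in NonTg parenchyma 1. The difference between genotypes in this pairing was not tested. The call was lost in 11 of 15 alternatives, whose adjusted p ranged from 0.00308 to 0.418 (edgeR, or DESeq2 at 0.100). It was lost when NonTg parenchyma 2, either 5xFADTg parenchyma library or either meninges library was left out, while the log2 fold change stayed between 0.94 and 1.70.

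The 20 TRAV13 clonotypes with TRBV10 were not 1 clone or 1 rearrangement. Of them 12 had TRAV13-1, 7 had TRAV13-2 and 1 had TRAV13-4, and they held 20 distinct beta and 19 distinct alpha CDR3 sequences over 16 TRAJ and 7 TRBJ segments, with at most 2 cells each. The repeated alpha occurred with different TRBV10 betas in different libraries, 5xFADTg parenchyma 2 and NonTg meninges. It joined TRAV13-2 to TRAJ34, and both betas used TRBJ2-7. GENCODE M21 lists TRBV10 (chr6:41091940-41092228, plus strand) as a pseudogene, although the deposited contigs with it were called productive.

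No other TRBV partner passed the test. The joint TRBV12-2+TRBV13-2 label had 9.22% against 11.0% (log2 fold change -0.25, adjusted p = 0.772, edgeR), TRBV16 8.29% against 5.22% (0.65, adjusted p = 0.466, edgeR), TRBV3 7.83% against 8.27% (-0.08) and TRBV19 6.91% against 6.92% (-0.00). The last 2 change sign under 1 or more alternatives. TRBV26 was next among the higher ones (11 clonotypes, 0.63), and the lowest were TRBV13-2 under its own name (1 clonotype, -1.88), TRBV20 (2, -1.58) and TRBV17 (2, -1.39), none past the test. With the joint label counted as TRBV13-2, the value of TRBV13-2 was -0.40, and without NonTg parenchyma 1, which held its 1 clonotype, no fold is given. TRBV13-1 was paired with 12 of 115 TRAV13-1 clonotypes (10.4%) and 2 of 73 TRAV13-2 clonotypes (2.74%), against 6.64% of others. The whole TRBV13 family, with the joint label counted in, had 22.1% of TRAV13 clonotypes and 27.0% of others. Among TRBJ segments TRBJ2-7 led with 44 clonotypes (20.3%), of which 21 were TRAV13-2 and 17 TRAV13-1, followed by TRBJ1-2 with 22 (10.1% against 6.36% of others) and TRBJ2-1 with 22.

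**Figure D4:**
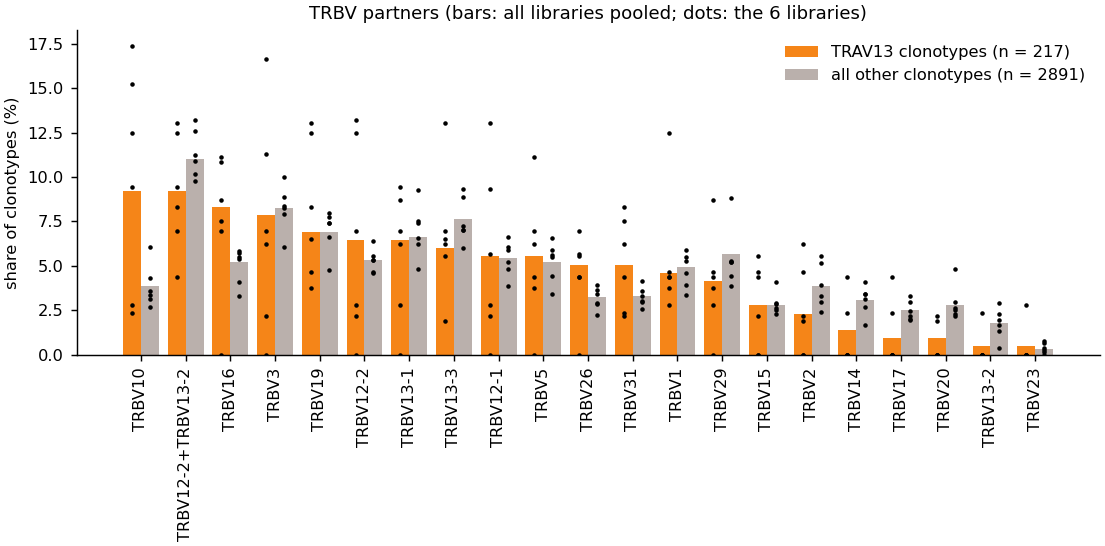
Share of clonotypes (percent) by TRBV partner for TRAV13 clonotypes and for all other clonotypes. TRBV10 has 9.22% of TRAV13 and 3.87% of other clonotypes, the 1 called difference among 21 segments.

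Alpha CDR3 loops of TRAV13 clonotypes had a lower mean length than those of others in all 6 libraries, a difference that did not pass the correction. Their mean lengths were 13.3, 13.1, 13.1, 13, 13.1 and 13.5 amino acids in NonTg parenchyma 1 and 2, 5xFADTg parenchyma 1 and 2, NonTg meninges and 5xFADTg meninges, against 13.7, 13.7, 13.7, 13.9, 13.7 and 13.8 for other clonotypes. Every TRAV13 value lay below every value of the others. The mean difference was -0.528 amino acids (SD 0.197, n = 6), lower in 6 of 6 libraries, with p = 0.0312 in a two-sided exact sign-flip permutation test, the smallest it can give, and adjusted p = 0.156 over 5 values, so it did not pass the correction. Without iNKT-like receptors among the others, whose alphas have 15 amino acids, the difference was -0.446. By member the mean length was 13.1 ± 1.44 for TRAV13-1, 13.2 ± 1.57 for TRAV13-2, 13.1 ± 1.25 for TRAV13-3 and 13.8 ± 1.58 for TRAV13-4 (SD over clonotypes).

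The other values compared in the same way did not pass either. Beta CDR3 loops averaged 13.8 amino acids with TRAV13 and 14 without (difference -0.289, lower in 5 of 6 libraries, exact permutation p = 0.125, adjusted p = 0.208), and without 5xFADTg meninges the difference was -0.171. A TRBJ1 segment was used by 39.5% ± 4.57 of TRAV13 and 34.2% ± 2.0 of other clonotypes (SD, n = 6), higher in 5 of 6 libraries and lower in NonTg meninges (31.2% against 32.6%, exact permutation p = 0.0625, adjusted p = 0.156). The median UMI count of the alpha contig was 54.3 against 55.8 (mean of 6 libraries, exact permutation p = 0.75). The difference was -1.54 with an SD of 12.8, and TRAV13 was higher in 3 libraries and lower in 3.

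**Figure D5:**
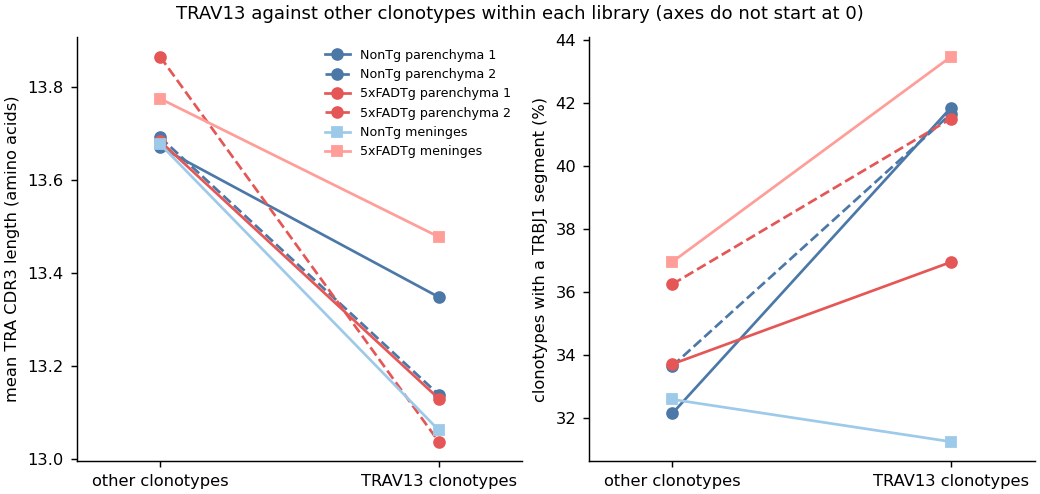
Mean alpha CDR3 length and share of clonotypes with a TRBJ1 segment for TRAV13 and other clonotypes, with 1 line per library joining the 2 classes. The alpha CDR3 length is lower for TRAV13 in 6 of 6 libraries, and the share of TRBJ1 is higher in 5 of 6.

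Of the 217 TRAV13 clonotypes, 6 pairs of identical alpha and beta sequences occurred in 2 libraries. Each joined parenchyma and meninges of the same genotype, with 4 between NonTg parenchyma 1 and NonTg meninges and 2 between 5xFADTg parenchyma 1 and 5xFADTg meninges. Among them were the 29-cell clone, with 1 cell in NonTg meninges, and the 5-cell TRAV13-2 clone, also with 1 cell there. The labels do not say whether the tissues came from the same mice. Of meningeal TRAV13 clonotypes, 4 of 16 (25.0%, interval 7.27 to 52.4%) were also in NonTg parenchyma and 2 of 23 (8.70%) in 5xFADTg parenchyma, against 23.0% and 13.9% of other meningeal clonotypes. The intervals of TRAV13 and other clonotypes overlapped. By contrast, 2 of 207 distinct TRAV13 alpha sequences were found in different libraries with different betas, the TRAJ48 alpha of the group with near-identical betas and the TRAJ34 alpha seen with TRBV10.

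TRAV13-1 was counted more often as the additional alpha chain of a clonotype than as its main one, a difference that did not pass the correction. In 324 clonotypes with exactly 2 productive alphas, TRAV13-1 was the chain with fewer UMIs in 22 (6.79%) and the chain with more in 9 (2.78%). By library the counts were 4, 4, 8, 3, 1 and 2 as the additional chain and 1, 0, 4, 3, 0 and 1 as the main chain, in the order of libraries used above. The additional count was equal in 5xFADTg parenchyma 2 and higher in the other 5. The log2 fold change was 1.22 (SE 0.41, unadjusted p = 0.0177, adjusted p = 0.239, edgeR with library as block), and 1 of 27 segments did (3.7%, TRAV9-1, lower). TRAV13-2 had 13 additional and 15 main chains (log2 fold change -0.20). A TRAV13 segment was in 61 of the 324 clonotypes, and in 5 of them both alphas were TRAV13.

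The share of nonproductive contigs, those that the deposited lists do not call productive, varied between members and was not tested. Over all TRA contigs, 22.2% were nonproductive, and counted once per clonotype 19.4%. For TRAV13 the shares were 33.4% of contigs and 24% once per clonotype. TRAV13-3 had the highest share, with 19 nonproductive and 9 productive chains once per clonotype (67.9%). Among them the D copy, TRAV13D-3, gave 13 nonproductive chains of 13, and by contigs it had 20 nonproductive and 1 productive (95.2%). Once per clonotype all 9 productive TRAV13-3 chains were counted as TRAV13N-3, so that 1 productive contig does not appear under TRAV13D-3 there. The exon of TRAV13D-3 has no stop codon in frame, but it matches that of the pseudogene TRAV13-3 at all 284 aligned bases. Whether these contigs came from the D copy or from the pseudogene was not tested. TRAV13D-1 had the lowest share of the copies in both counts, 1 of 21 once per clonotype (4.76%) and 2 of 61 by contigs (3.28%).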

How the data were processed

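Single-cell T cell receptor sequencing of sorted CD45+ cells gave 6 contig lists. The labels' protocols name the 10x Genomics v2 immune profiling kit, and Cell Ranger 6.0 with the mouse build mm10 is named per the submitters' processing notes. The deposited lists give V, D, J and C calls, CDR3 sequences, productive status and raw counts of reads and UMIs without normalization, per the file headers. For further filters, the sources used here give none. The 6 gene expression samples were not analysed here.

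Productive contigs were used as deposited. Paired cells had a single TRB and 1 or more TRA, and cells with more TRB, which can be doublets, were left out of clonotypes, with no other doublet filter. Paired cells numbered 1063, 766, 1206 and 1453 in the parenchyma libraries (NonTg 1 and 2, 5xFADTg 1 and 2) and 349 and 370 in NonTg and 5xFADTg meninges. Intervals are 95% exact (Clopper-Pearson), and a count of 0 is given the limit of 3 counts. Both cover counting error only, since receptor chains were amplified by PCR.

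Counts of clonotypes per segment entered the quasi-likelihood test of edgeR 4.0.16 (R 4.3.3 and limma 3.58.1) over all segments with at least 10 clonotypes, library size being its clonotype number, Benjamini-Hochberg adjustment over all segments and a threshold of 0.05. Genotype was tested over the 4 parenchyma libraries, tissue over all 6 with genotype as covariate, and expansion, partners and additional chains within libraries as block. Each SE was derived from the fold change and its F statistic. Means of 5 values were compared by an exact sign-flip test over 6 libraries. On simulated counts, 10 of 10 segments with a 4-fold and 9 of 10 with a 2-fold change were found for genotype. For tissue it was 10 and 7 of 10, for expansion 10 and 3 of 10, and for TRAJ 7 and 1 of 10. For TRBV it was 6 and 2 of 6, and for additional chains 3 and 0 of 3. Only segments with a total count of at least 40 (20 for additional chains) were changed, and only upward. These figures therefore do not cover TRAV13-3, TRAV13-4 or decreases.

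V exons came from GENCODE M21 on mm10. Software was Biopython 1.88, matplotlib 3.10.9, scipy 1.17.1, numpy 2.4.6 and pandas 2.3.3 under Python 3.11.15. The members, lists, tests and alternatives were chosen with earlier results of these data known. Named were all members in every fit, every called partner, the 5 partners with most TRAV13 clonotypes, the 3 lowest p on each side, clones of 10 or more cells, the 2 largest of each member, and clonotypes or alphas found in more than 1 library. TRBV13-1, the TRBJ segments, the split of copies, the near-identical beta group and nonproductive contigs were added after values were seen. Alternatives were TMM factors, DESeq2 1.42.0, no count filter, at least 2 UMIs per chain, the deposited clonotype identifier, cells in place of clonotypes, copies kept apart, expansion from 3 cells, the replicate number as block and each library left out. Leaving out iNKT-like receptors, merging the joint TRBV label and leaving out TRAV13-4 were added after the data were seen.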

Additional observations from a re-analysis of the deposited data

Results flagged for a closer look

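The share of cells with TRAV13 in the 4 parenchyma libraries was flagged because NonTg parenchyma 1, with 9.13%, lay far above the other 3 (5.06 to 5.74%), a gap of 0.831 of the whole range. Of 15 groups of 4 or more libraries that were looked at in this way, 1 was flagged, and chance flags about 1 in 20. In that library 29 of 97 TRAV13 cells were 1 clonotype, and its share of clonotypes, 7.10%, was within the range of the other libraries.

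A TRAV13-1 segment also appeared in data outside the comparisons, as a nonproductive contig joined to TRAJ32. It was found in 56 of 94 cells (59.6%) of the largest clone of NonTg parenchyma 2, whose productive alpha joined TRAV8N-2 to TRAJ40, and in 4 of 5 cells of the same clone in NonTg meninges. In the parenchyma cells the nonproductive contig had a median of 62.5 UMIs and the productive one of 8.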

How the results depend on the processing

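No TRAV13 segment passed the threshold in any fit under any alternative, and small fold changes had no stable sign. The log2 fold change by genotype turned to 0.035 with DESeq2 and 0.013 with the deposited identifier for TRAV13-1. It turned to -0.075 with cells for TRAV13-2 and to 0.0028 with the deposited identifier for TRAV13-4. Copies kept apart are parts of a member, and their values by genotype differed in sign. Unlettered TRAV13-1 stood at 0.25, TRAV13D-1 at -0.43 and TRAV13N-1 at -0.60, and unlettered TRAV13-2 at -0.31 and TRAV13D-2 at 0.26. By expansion unlettered TRAV13-2 stood at 0.093 and TRAV13D-2 at -1.66. With TMM factors TRAJ22, TRAJ31, TRAJ26 and TRAJ15 turned to -0.41, -0.23, -0.17 and -0.20, and TRAJ22 to -0.034 with DESeq2. Relative to the median of all TRAJ segments TRAJ22 stood at 0.56 in the reported fit and 0.52 with TMM. TRBV19 turned to 0.041 with DESeq2 and 0.037 with at least 2 UMIs, TRBV3 to 0.025 with the deposited identifier, and the joint TRBV12-2+TRBV13-2 label to 0.039 without iNKT-like receptors. The count of called TRAJ partners, 1 as reported, was 7 with TMM (all lower), 5 with cells, 0 with DESeq2 and 0 without iNKT-like receptors, where the alternative removes the clonotypes behind the call. The count of called TRBV partners, 1 as reported, was 0 with TMM, DESeq2, at least 2 UMIs, the deposited identifier, cells and without iNKT-like receptors. The cause of the other changes was not tested. Leaving out each library gave 0 to 1 called TRAJ and 0 to 1 called TRBV partners, and a UMI difference of -4.95 to 2.55. Log2 fold changes then ranged by genotype from -0.20 to 0.26 for TRAV13-1, -0.45 to 0.48 for TRAV13-2 and -0.87 to 0.60 for TRAV13-4, by tissue from -0.84 to 0.30 for TRAV13-1 and -0.36 to 0.46 for TRAV13-2, and by expansion from 0.16 to 0.51 for TRAV13-1, -1.86 to -0.40 for TRAV13-2 and -0.20 to 0.69 for TRAV13-4. For TRBV19 the range was -0.17 to 0.23, for TRBV3 -0.44 to 0.081. Calls over all segments by expansion, 3 as reported, were 7 with TMM and 1 with DESeq2, with expansion from 3 cells and without 5xFADTg parenchyma 2. The called TRAV9-1 among additional chains was lost with DESeq2, without a count filter, with at least 2 UMIs and when any 1 library was left out. With the replicate number as block the genotype fold changes were -0.01, 0.08 and -0.30 for TRAV13-1, TRAV13-2 and TRAV13-4, with 0 TRAV13 segments called. Deviations of same-numbered libraries correlated at 0.0419 over 122 segments. With 2 libraries per group this is a single value, which cannot decide whether the numbers pair the samples. Depth limits TRAV13-3 and TRAV13-4 most, where a library of 286 to 784 clonotypes gives single counts.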

Other observations

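Over the 6 libraries, the share of TRAV13-1 clonotypes varied most like those of TRAV9-2 (Pearson r = 0.896) and TRAV7-5 (0.843), among 48 segments compared. TRAV13-2 varied most like TRAV4-4-DV10 (0.949) and TRAV16 (0.811), and TRAV13-4 most like TRAV15-1-DV6D-1 (0.897) and TRAV8-1 (0.83). These are the highest of many values over 6 libraries of the same cells and depths, and are given as a description.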
